A study of Mus musculus with 388 samples.

Results

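The 7 genes described here encode the receptors of the Hedgehog pathway, their antagonists and the Gli transcription factors: Ptch1, Hhip, Smo, Sufu, Gli1, Gli2 and Gli3. They were chosen by symbol and not by a rule on measured values, though earlier results of these data were known. All 7 were among the 25000 genes of the count table. Whole transcripts of single bone marrow stromal cells had been amplified and sequenced, 1 library per cell, from C57BL/6 mice at 2 months of age. The genotype, shared by all cells, was KitMerCreMer; R26tdTomato: a Cre recombinase that acts only after tamoxifen, driven from Kit, and a reporter that turns red in cells where Cre has acted and in all their descendants. All mice had received tamoxifen before birth, at E12.5 and E14.5, so that the label follows fetal Kit-expressing cells into the adult. Adult cells were sorted for PDGFRα and against CD45, Ter119 and CD31, and then by the reporter into Tomato+ cells (48.2% of the 388) and Tomato− cells (51.8%). A Tomato− cell may also descend from a Kit-expressing cell in which Cre did not act, and the number of animals or pools is not given. Each group is therefore treated as 1 sample, and no test was made. Intervals on summed levels treat every count as independent, and intervals on shares treat every cell as independent. Neither kind covers spread between animals or the amplification of molecules, so they do not compare the groups.

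In Hedgehog signalling, a secreted ligand (Shh, Ihh or Dhh) binds Ptch1, a membrane protein that otherwise holds the transducer Smo inactive. Smo released in the primary cilium frees the Gli proteins from Sufu, which retains them in the cytoplasm. Gli2 is the main activator, Gli3 is mostly cut to a repressor, and Gli1, Ptch1 and Hhip are transcribed in response, which makes them common readouts of the pathway. In adult mouse marrow, Gli1 is known as a marker of mesenchymal cells near the growth plate and around vessels.

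The cells fall into title sets within 2 title orders, and the labels used here do not state what order and set stand for. Order 1 holds the Tomato+ sets P1, P2 and P3 (94, 5 and 40 cells) and the Tomato− set N2 (60 cells). Order 2 holds the Tomato+ sets P1 and P2 (24 cells each) and the Tomato− sets N1 and N2 (71 and 70 cells). After 2 shallow Tomato+ cells were left out, 386 cells remained, with a median of 679644 counts per cell. The median total, before that filter, was 773956 in Tomato+ and 500702 in Tomato− cells of order 1, and 653682 and 649235 in order 2. Every kept cell had at least 5 counts of Lepr, the leptin receptor that marks marrow stroma, and 374 cells had a count of Pdgfra. At least 5 counts of Ptprc (CD45) or Pecam1 (CD31) were present in 35 cells, against the gate. Levels are in CPM, the counts summed over the cells of a group and scaled to a total of 1000000. Ratios are log2 of CPM + 1, Tomato+ over Tomato−, taken within each order; the added 1 CPM understates ratios of low genes.

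Ptch1 and Hhip are the members that act at the cell surface and are also Hedgehog targets, and their promoter sequences are shown because their levels are set against that of Gli1 below. The windows run from 250 bases before to 50 after the RefSeq start, on GRCm38.p6, and capitals mark CCACCC, the core of the Gli binding motif, on either strand. The Ptch1 window is chr13:63565686-63565985, minus strand, inside the GENCODE gene rather than at its outer start. The Hhip window is chr8:80057959-80058258, minus strand.
Ptch1: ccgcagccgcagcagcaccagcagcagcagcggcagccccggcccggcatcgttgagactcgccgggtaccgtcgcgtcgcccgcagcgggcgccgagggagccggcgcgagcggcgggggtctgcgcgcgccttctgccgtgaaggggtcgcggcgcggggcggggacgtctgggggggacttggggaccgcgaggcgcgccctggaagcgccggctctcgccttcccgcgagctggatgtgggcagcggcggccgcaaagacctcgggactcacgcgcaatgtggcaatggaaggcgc
Hhip: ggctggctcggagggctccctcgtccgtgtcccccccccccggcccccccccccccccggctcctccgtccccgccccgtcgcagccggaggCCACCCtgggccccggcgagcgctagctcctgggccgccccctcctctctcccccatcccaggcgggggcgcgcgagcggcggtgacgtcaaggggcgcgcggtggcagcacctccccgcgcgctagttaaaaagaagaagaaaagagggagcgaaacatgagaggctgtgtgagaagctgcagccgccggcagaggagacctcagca
The 9-letter Gli motif GACCACCCA, searched on both strands, was in 0 of the 6 member promoters found in the RefSeq table (Gli1 was not matched) and in 83 of all 32851 promoters, 0.253%. The core CCACCC, which lies within the longer motif, was in 4 of the 6 (Gli2, Gli3, Hhip and Smo) and in 31.5% of all promoters. These windows were rich in G and C, 73.7% for Hhip and 76.3% for Ptch1, against a median of 52.7% over all promoters. A match is only a run of letters, and its absence says nothing of sites outside the window.

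Per kilobase of annotated exon, the members spanned a wide range of levels over all 386 cells. Smo stood at 6.46 CPM per kilobase, Sufu at 6.21, Gli3 at 4.56, Ptch1 at 3.22 and Hhip at 3.01. Gli2 followed at 1.12 and Gli1 at 0.194 CPM per kilobase. Over the 7 title sets with at least 20 cells the ranges of neighbours in this order overlapped in every case. Smo ranged from 3.41 to 8.76 CPM per kilobase between sets, and Sufu from 0.486 to 9.97. Smo was above Sufu in 4 of the 7 sets, Gli3 above Ptch1 in 7, and Ptch1 above Hhip in 3. Gli1 was the lowest member in 5 of the 7 sets; Hhip was lowest in P2 of order 2 and Gli2 in P3 of order 1. The level per kilobase over all cells thus placed Smo, Sufu and Gli3 first and Gli1 last, at levels that moved severalfold between sets. Without division by exon length the first were Sufu at 47.8, Ptch1 at 45.6 and Gli3 at 43.7 CPM, followed by Smo at 36.3 CPM.

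Detection per cell was sparse. With at least 5 counts required, Sufu was present in 29.3% of cells, Gli3 in 28%, Ptch1 in 21.8%, Smo in 21.5%, Gli2 in 8.03%, Hhip in 5.70% and Gli1 in 2.07%. No member reached 5 counts in 34.7% of cells, 1 member did in 110 cells, 2 members in 100, 3 in 30, 4 in 11 and 5 members in 1 cell. The cells without a member had a median of 529147 counts against 714812 in the other 252, but this did not hold in every set: they were the deeper ones in P1 of order 1 (877542 against 842939), and in P2 and N2 of order 2. They made up 75% of Tomato− cells in order 1, but 31.4% of Tomato+ cells in order 1, and 16.7% and 27% of Tomato+ and Tomato− cells in order 2. The cells without a member had medians of 416638 counts in Tomato− and 654163 in Tomato+ of order 1, so depth moved with this difference; its part was not tested.

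Cells of a myeloid-like cluster served as a comparison for low counts, with the caution that Smo and Sufu are widely expressed and may be made there too. Clustering without any Hedgehog gene placed 8 cells, all Tomato− of order 2, in a myeloid-like cluster with a median of 894743 counts per cell. In their sum Gli1 and Ptch1 were at 0, which allows up to 0.452 CPM, and the other members were between 0.301 and 0.452 CPM. Single counts were still found: 2 of the 8 cells (25%) had a count of Gli3, of Smo and of Sufu, and 1 of the 8 had a count of Gli2 and 1 of Hhip. None of these cells had 5 counts of any member, which for 8 cells allows a share of up to 37.5%. Over all cells 21.8% had a count of Hhip and 13.7% of Gli2, above those shares, but 1 of 8 cells sets them only within wide limits. In the remaining clusters together, Ptch1 stood at 46.8 CPM and Gli3 at 44.8 CPM. Lepr was at 58.9 CPM in the myeloid-like cluster, and all 8 of its cells had at least 5 counts of it. Of 15 markers of Lepr+ stroma, 12 had at least 5 counts in 25% or more of these cells. Whether the cells are free of stromal transcripts was not tested.

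**Figure D1:**
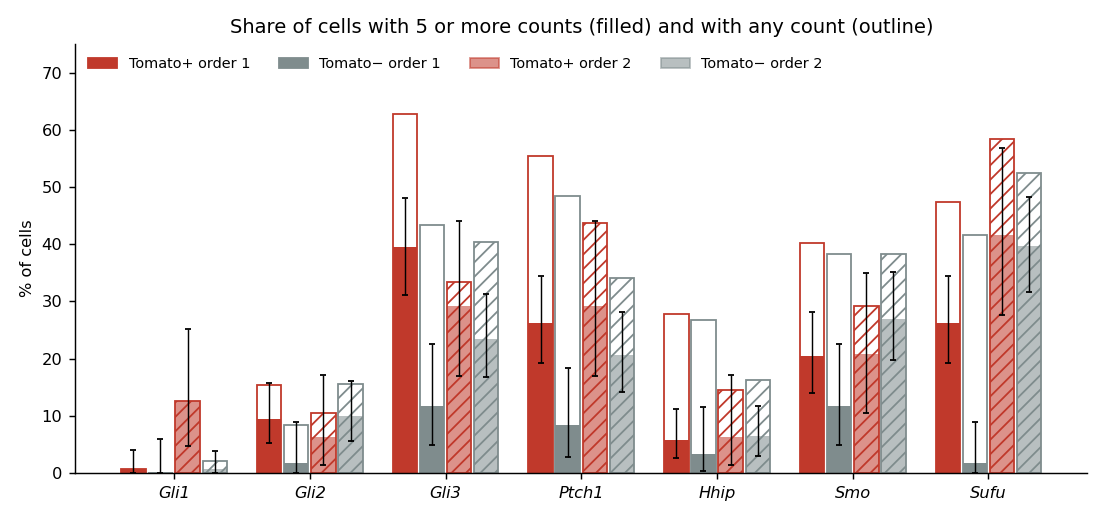
Share of cells (vertical axis, %) with at least 5 counts (filled bars, exact 95% binomial intervals) and with any count (outlines) of each member, by Tomato group and title order (order 2 paler and hatched). In Tomato− cells of order 1 the outline stands far above the filled bar for Sufu, 41.7% against 1.67%.

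Low counts were common: 90 cells had 1 to 4 counts of Ptch1, 79 of Sufu, 77 of Gli3, 63 of Smo, 62 of Hhip, 22 of Gli2 and 2 of Gli1. Whether they are transcripts of the cell was not tested, and 5 counts were used as the mark of presence below.

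Ptch1 (chr13:63508328-63573598, minus strand), the ligand receptor, was higher in Tomato+ cells of both orders, by just under 1.5-fold in order 2. Tomato+ cells of order 1 stood at 73.3 CPM (71.7 to 74.9), against 31.8 CPM in Tomato− (29.9 to 33.7), a log2 ratio of 1.18. Order 2 gave 32.7 CPM (30.7 to 34.7) against 21.7 CPM (20.8 to 22.7), a log2 ratio of 0.57. At least 5 counts were found in 26.3% of Tomato+ cells (36 cells) and 8.33% of Tomato− cells (5 cells) in order 1, and in 29.2% (14 cells) and 20.6% (29 cells) in order 2. In order 1 cells with 5 counts ran from 9.59 through a median of 246 to 694 CPM in Tomato+, and from 40.1 through 194.8 to 527 CPM in Tomato−. In order 2 the medians of such cells were 119.6 and 105.2 CPM, and the groups overlapped in both orders. The difference was not the same in all sets: within order 2, the sets numbered 1 gave 45.9 CPM in Tomato+ and 17.5 CPM in Tomato−, and the sets numbered 2 gave 22.7 and 25.05 CPM. The ratio was 1.34 in the first pair and −0.14 in the second. Among library codes of order 1 that hold both groups (83 Tomato+ and 60 Tomato− cells), it was 1.27.

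Hhip (chr8:79965851-80058006, minus strand), which binds Hedgehog ligands at the cell surface and keeps them from Ptch1, had lower sums in Tomato+ cells, and 1 cell held most of the sum in 3 of the 4 groups. Order 1 gave 19.7 CPM (18.9 to 20.5) for Tomato+ against 76.6 CPM for Tomato− (73.6 to 79.7), a log2 ratio of −1.91. Order 2 gave 15.4 CPM (14.03 to 16.8) against 22.9 CPM (21.97 to 23.9), a log2 ratio of −0.55. In Tomato− cells of order 1, 1 cell with 1984 counts, 5076 CPM of its own total, held 78.8% of the sum. In Tomato+ cells, 1 cell held 72.7% of the sum in order 1 and 60.7% in order 2, while the top Tomato− cell of order 2 held 31.3%. Without the top cell of each group the ratios were −1.44 and −1.24, both beyond 1.5-fold. Only 2 Tomato− cells of order 1 had at least 5 counts, at 440 and 5076 CPM. The ratio of −1.44 thus still rested on 1 such cell. The share of cells with at least 5 counts was not lower in Tomato+ cells by a like factor: 8 Tomato+ (5.84%) and 2 Tomato− cells (3.33%) in order 1, and 3 (6.25%) and 9 cells (6.38%) in order 2. Hhip was found in few cells, some at high level, with a median of 156.4 CPM and a highest value of 5076 CPM among its 22 cells. Its ratio changed sign between subsets of cells. It was −3.16 in the shared codes of order 1, then 2.21 in the sets numbered 1 and −4.97 in the sets numbered 2 of order 2. These sets are set side by side by their number alone, and no label says that they were handled together.

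**Figure D2:**
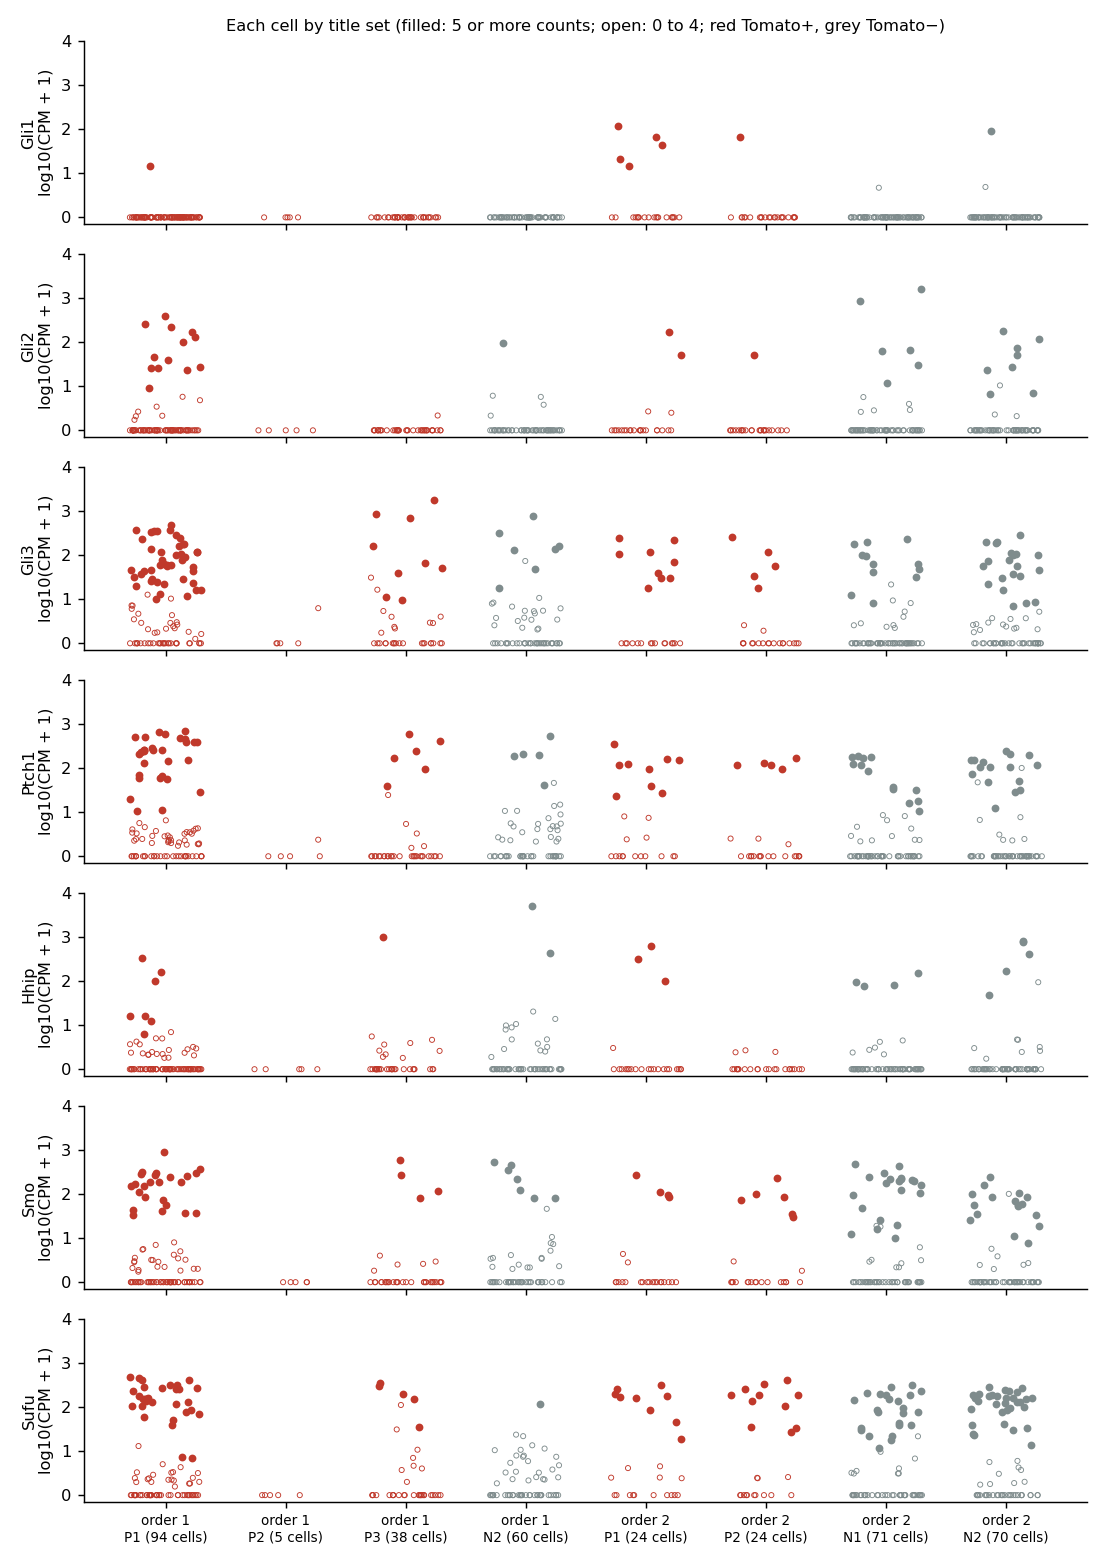
Each point is 1 cell; the vertical axis is log10 of its CPM + 1 and the horizontal axis the title set, in red for Tomato+ and grey for Tomato− (filled, at least 5 counts; open, 0 to 4 counts). Gli1 has 5 filled points among the 24 cells of P1 of order 2, and Hhip has few points in every set, 1 of them at 5076 CPM.

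Smo (chr6:29735503-29761365, plus strand), the transducer that Ptch1 restrains, did not differ in 1 direction between the groups. In order 1 Tomato+ stood above Tomato−, 45.6 CPM (44.3 to 46.8) to 32.998 CPM (31.1 to 34.99), and in order 2 below it, 23.1 CPM (21.4 to 24.8) to 30.8 CPM (29.7 to 31.9). The ratios of 0.45 and −0.40 on the log2 scale were both within 1.5-fold. At least 5 counts were found in 28 cells (20.4%) of Tomato+ and 7 (11.7%) of Tomato− in order 1, then in 10 (20.8%) and 38 cells (27%) in order 2. The 83 cells with Smo ran from 6.87 through a median of 109.5 to 914 CPM. The highest set was P1 of order 1 at 49.2 CPM, followed by the Tomato− set N1 of order 2 at 45.4 CPM. The ratio was 0.66 in the shared codes of order 1, −0.83 in the sets numbered 1 and 0.17 in the sets numbered 2 of order 2.

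Sufu (chr19:46396896-46488804, plus strand), the cytoplasmic inhibitor of Gli proteins, had the widest difference among the members in order 1 and was within 1.5-fold in order 2. In order 1 Tomato+ had 53.7 CPM (52.4 to 55.1) and Tomato− 3.74 CPM (3.11 to 4.46), a log2 ratio of 3.53, and 84 of the Tomato− counts, 68.3%, came from 1 cell. In order 2 Tomato+ had 70.3 CPM (67.3 to 73.3) and Tomato− 48.7 CPM (47.3 to 50.2), a log2 ratio of 0.52. In Tomato− cells of order 1, 25 of 60 cells had a count, but only 1 (1.67%, 0.0422 to 8.94) had 5 or more. That share was 26.3% (19.1 to 34.5) in Tomato+ cells of order 1, 41.7% in Tomato+ and 39.7% in Tomato− cells of order 2. The Tomato− cells of order 1 thus stood apart from the other 3 groups. The low level there was that of a single title set, N2. The library codes with both groups hold all 60 of these Tomato− cells, so their 3.74 CPM could not change. The 83 Tomato+ cells of those codes stood at 59.5 CPM. Thinned to 150000 counts each, 34.6% of Tomato+ and 34% of Tomato− cells of order 1 had any count, a looser mark than 5 counts. The log2 ratio of the sums of these thinned cells in order 1 was still 3.16. In order 2 the sets ranged from 40.99 CPM in N1 to 76.7 CPM in P2, and both pairs of sets had the higher level in Tomato+ cells, with ratios of 0.58 and 0.47.

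**Figure D3:**
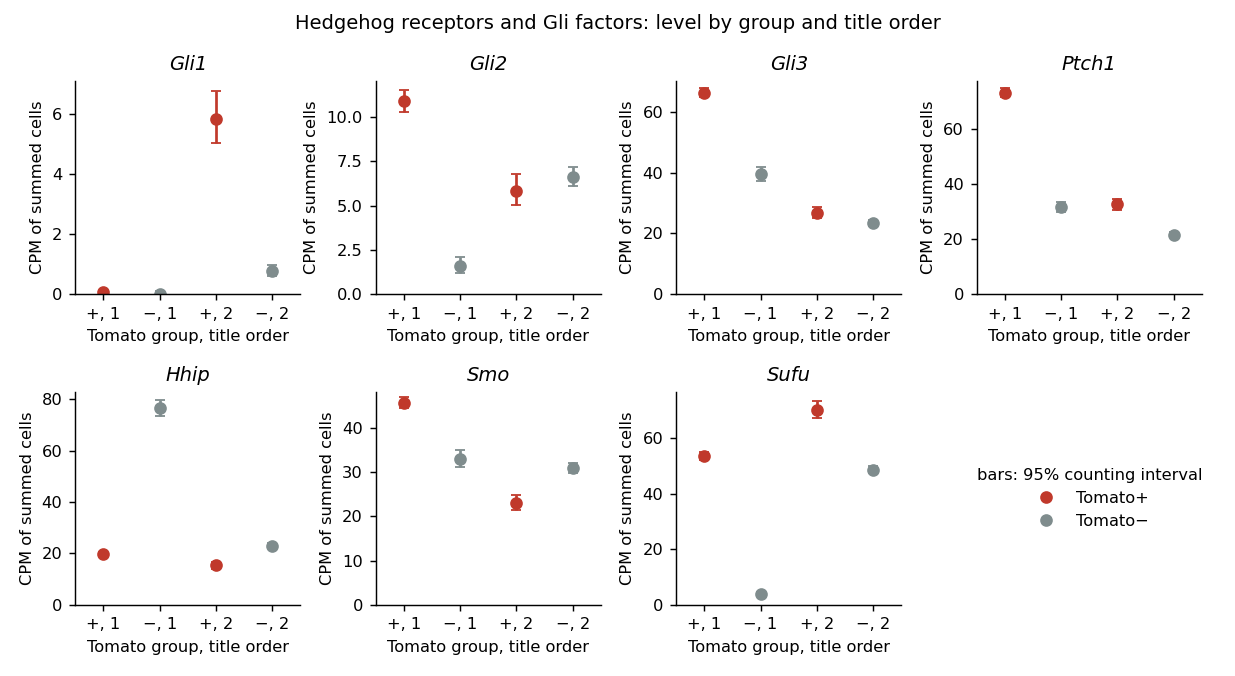
Level of each member (vertical axis, CPM of the summed cells, from 0) in Tomato+ (red) and Tomato− cells (grey) of title orders 1 and 2, with exact 95% Poisson intervals. Sufu stands at 3.74 CPM in Tomato− cells of order 1 and at 48.7 to 70.3 CPM in the other groups, and Gli1 rises above 1 CPM only in Tomato+ cells of order 2.

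Gli1, both effector and target of the pathway, was found in 10 of 386 cells, 7 of them Tomato+. In order 1 its 6 counts came from 1 Tomato+ cell, 0.0538 CPM (0.0198 to 0.117), and none was found in 60 Tomato− cells, which allows up to 0.0912 CPM. Order 2 gave 5.85 CPM (5.03 to 6.77) for Tomato+ against 0.775 CPM for Tomato− (0.606 to 0.976), a log2 ratio of 1.95. These sums also rest on few cells: 6 of 48 Tomato+ cells (95% interval 4.73 to 25.2%) and 1 Tomato− cell (0.709%, 0.0180 to 3.89) had at least 5 counts. The set P1 of order 2 alone held 5 of the 6, at 10.4 CPM, and P2 held the other at 2.42 CPM. The ratio was 3.41 for the sets numbered 1 and 0.55 for those numbered 2, and 0.11 in the shared codes of order 1. In cells with 5 counts the level ran from 13.6 through 54.5 to 120 CPM. Of the 10 Gli1 cells, 9 had at least 1796 counts of Lepr, and the order 1 cell had 399. Pecam1 was at 207 counts in that cell and at 14 in 1 cell of order 2, and at 0 in the other 8. Of the 8 cells with at least 5 counts of Gli1, 2 had 5 of Ptch1, 0 had 5 of Hhip, 3 had 5 of Gli3 and 2 had 5 of Gli2. Gli1 (chr10:127329882-127341974, minus strand) overlaps Arhgap9 and the antisense gene Gm47200 on the other strand, and with the strand setting of the counting unknown, their reads cannot be told apart where they overlap.

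Gli2 (chr1:118834132-119053619, minus strand), the main activator, was low and uneven between sets. Tomato+ cells had 10.9 CPM (10.3 to 11.5) in order 1, and Tomato− cells 1.58 CPM (1.18 to 2.07), a log2 ratio of 2.20. In order 2 they had 5.85 CPM (5.03 to 6.77) and 6.65 CPM (6.14 to 7.20), a log2 ratio of the opposite sign, −0.16. All 13 Tomato+ cells of order 1 with at least 5 counts were in the set P1, at 14.5 CPM, while P3 of the same order stood at 0.0395 CPM. Without P1 of order 1 the mean ratio turned from 1.02 to −0.74. In order 2, 3 Tomato+ (6.25%) and 14 Tomato− cells (9.93%) had at least 5 counts, up to 1659 CPM in a Tomato− cell. The ratio was 2.65 in the shared codes of order 1, 0.53 in the sets numbered 1 and −1.24 in the sets numbered 2 of order 2.

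Gli3 (chr13:15463235-15730026, plus strand), the source of the main repressor form, was the most widely detected Gli gene, and its level was higher in Tomato+ cells beyond 1.5-fold in order 1 only. Order 1 gave 66.5 CPM (65.01 to 68.05) for Tomato+ against 39.6 CPM for Tomato− (37.5 to 41.8), a log2 ratio of 0.73. Order 2 gave 26.8 CPM (24.98 to 28.6) against 23.4 CPM (22.5 to 24.4), a log2 ratio of 0.18. At least 5 counts were found in 54 cells (39.4%) of Tomato+ and 7 (11.7%) of Tomato− in order 1, then in 14 (29.2%) and 33 cells (23.4%) in order 2. Among cells with 5 counts the medians were 61.6 CPM in Tomato+ and 141.1 CPM in Tomato− in order 1, and 63.1 and 61.1 CPM in order 2, with overlapping ranges. In order 1, 1 of the 7 such Tomato− cells held 46.8% of the sum. The ratio was 0.60 in shared codes of order 1, 0.96 in the sets numbered 1 and −0.44 in the sets numbered 2 of order 2.

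Read together, no member passed a size rule applied to both orders. The rule asks for more than 1.5-fold in the same direction in each order, at least 5 CPM in the higher group of each order and a count in 10% of that group's cells. It could be met by 6 members, all but Gli1, and was met by 0 of them. Over the 9041 genes that could meet it, 421 (4.66%) were higher and 523 (5.78%) lower in Tomato+ cells. With shares this low over all genes, 0 of 6 is not a result about the members. In order 1 alone, 5 of 6 members passed 1.5-fold in either direction (Gli2, Gli3, Ptch1 and Sufu higher, Hhip lower), against 57% of the 9440 genes with that level. In order 2 alone, 1 of 7 did (Gli1, higher), against 33.5% of 9885 genes. Ptch1 lay closest to the limit in order 2, at a ratio of 0.57, followed by Hhip at −0.55 and Sufu at 0.52. The median ratio of the 6 members was 0.96 in order 1 and 0.013 in order 2, against 0.064 and −0.023 over all genes that could meet the rule, so the offset was seen in order 1 alone.

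**Figure D4:**
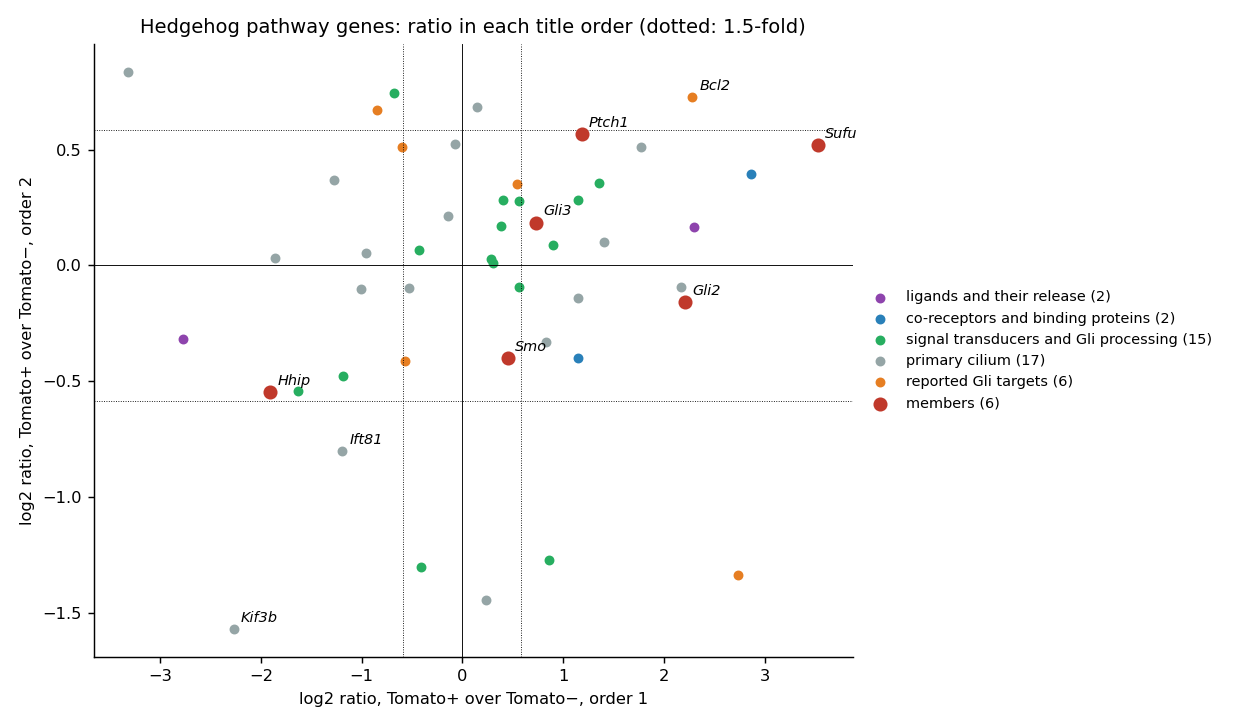
Log2 ratio of CPM + 1, Tomato+ over Tomato−, in order 1 (horizontal) and order 2 (vertical) for members (large red points) and genes of 5 Hedgehog lists that meet the level floor; dotted lines mark 1.5-fold. Bcl2, Ift81 and Kif3b lie beyond 1.5-fold in both orders in the same direction, and no member does.

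The ligands were hardly seen in these cells. Of 9 genes for ligands and their release, Ihh and Disp2 were at 0, and 2 could meet the size rule (0 higher, 0 lower). Shh had at least 5 counts in 10 cells and Dhh in 4, and 1 cell held 56.4% of the Shh and 78.4% of the Dhh counts. The acyltransferase Hhat and the ligand exporter Disp1 were highest in the list, at 13.5 and 5.85 CPM over all cells. Among 6 co-receptors and binding proteins, 2 could meet the rule, 0 in either direction: Gas1, a ligand-binding co-receptor, at 130 CPM with 5 counts in 211 cells, and Boc, another co-receptor, at 37.6 CPM in 70 cells. Boc stood at 38.95 CPM in Tomato+ and 4.50 CPM in Tomato− in order 1, then 55.2 and 41.7 CPM in order 2.

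Signal transducers and Gli-processing genes gave 15 of 21 that could meet the rule, with 0 higher and 0 lower and median ratios of 0.38 in order 1 and 0.067 in order 2. Prkar1a, a regulatory subunit of protein kinase A, and Csnk1a1, a casein kinase, were highest at 481 and 331 CPM. Of 20 primary cilium genes 17 could meet it, 0 higher and 2 lower, against 4.66% higher and 5.78% lower over all genes that could. No list was tested against these shares. The cilium medians were −0.15 in order 1 and 0.031 in order 2. The 2 lower genes were Ift81, which carries tubulin within the cilium, at 16.9 CPM in Tomato+ and 39.8 CPM in Tomato− in order 1, then 4.41 and 8.42 CPM in order 2, and Kif3b, a motor subunit, at 5.83 and 31.96 CPM, then 5.31 and 17.7 CPM. The highest cilium genes were Arl13b, a small GTPase of the cilium membrane, at 48.8 CPM and Kif3a, the motor partner of Kif3b, at 42.2 CPM. Of 16 genes reported elsewhere as Gli targets 6 could meet the rule, with 1 higher and 0 lower, against the same 4.66% and 5.78%. Their medians were −0.014 in order 1 and 0.43 in order 2. The higher one was Bcl2, an inhibitor of apoptosis, at 59.2 CPM in Tomato+ and 11.4 CPM in Tomato− cells in order 1, then 45.2 and 26.9 CPM in order 2. The highest targets were Bmp4, a bone morphogenetic protein, at 213 CPM and the cyclin Ccnd2 at 142.05 CPM.

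Members shared cells about as often as their single frequencies give when multiplied within each title set. With 5 counts of both required, 11 of the 21 pairs were above that value and 10 below, and 6 were above it in both orders. The widest excess was that of Gli3 and Sufu, 45 cells against 35.5, with 19 against 16.1 in order 1 and 26 against 19.3 in order 2. Gli3 and Ptch1 shared 34 cells (27.8), 18 in order 1 (16.4) and 16 in order 2 (11.4). Ptch1 and Sufu shared 34 (28.1), but 18 against 17.4 in order 2, and with any count 88 against 88.7. Gli2 and Gli3 were below, with 8 cells against 10.7 and 1 against 4.37 in order 2, but 7 against 6.34 in order 1. With any count Gli2 and Gli3 shared 27 cells against 27.4. Cells with both Gli3 and Ptch1 had a median of 815338 counts, above the 679644 of all kept cells, and the part of depth was not tested. Across cells, the mean Spearman correlation of CPM between members over the groups and orders lay between −0.06 and 0.14 for all 21 pairs, which is weak in counts this sparse and is given only as a description.

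The genes most like a member across cells were sought among 4818 genes with at least 5 counts in 20% of cells, by the mean Spearman correlation of CPM over the 4 combinations of group and order (386 cells sharing depth and library). For Ptch1 these were Foxo1 (0.27), Myadm (0.25) and Tm9sf2 (0.24). For Smo they were Thbs2 (0.27), Bgn (0.26) and Sparc (0.25), for Gli3 Ociad1 (0.22), Rexo1 (0.21) and Vmp1 (0.21), and for Sufu Lncpint (0.21), Bmper (0.20) and Trp53inp2 (0.20). No value passed 0.27, and none is read as a finding.

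Cell clusters, drawn without any Hedgehog gene, gave 9 groups, of which the 8 other than the myeloid-like cluster carried no defining class of markers and held cells of 1 title order almost alone. Ptch1 was highest in cluster 5 (31 cells, all of order 1), at 110 CPM with 5 counts in 38.7% of cells, and Gli3 was highest there too, at 97.6 CPM and 41.9%. Sufu was most widely found in cluster 1 (91 cells, all of order 2), in 46.2% of cells at 55.6 CPM. Gli1, Gli2 and Hhip reached 5 counts in 0 cells of clusters 4 and 6 (31 and 19 cells), and Gli1, Gli2, Smo and Sufu in 0 cells of cluster 8 (13 cells), which allows shares of up to 9.68%, 15.8% and 23.1%. The median totals of these clusters were 409122, 750287 and 354497 counts per cell. The 8 Gli1 cells with 5 counts were in clusters 3 (4 cells), 1 (3 cells) and 5 (1 cell). The 400 CPM of Hhip in cluster 8 came from 1 cell with at least 5 counts.

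**Figure D5:**
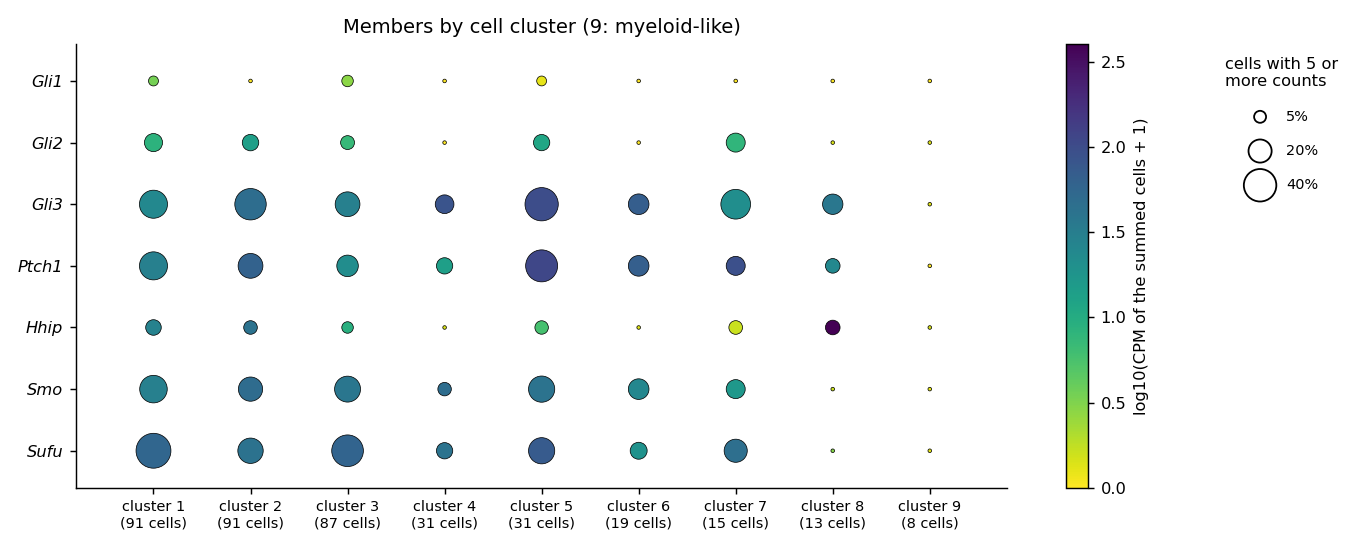
Members (rows) in 9 cell clusters (columns): point area grows with the share of cells with at least 5 counts and colour gives log10 of the CPM of the summed cells + 1. Cluster 5 holds the highest Ptch1 level, 110 CPM, and the myeloid-like cluster 9 has no cell with 5 counts of any member.

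Summed markers of stroma and of other cell types differed between the groups, and their part in the member values was not tested. Lepr+ stroma markers summed to 65926 CPM in Tomato+ and 42912 CPM in Tomato− in order 1, then 83328 and 73690 CPM in order 2. Osteogenic markers summed to 19090 and 24477 CPM, then 11018 and 13645 CPM. Markers of Sca1+ fibroblasts summed to 2919 and 4179 CPM, then 1181 and 2191 CPM. Chondrogenic, lymphoid, erythroid and Schwann sums are not shown. The summed level of 9 endothelial markers in order 1 was 211 CPM in Tomato+ against 45.6 CPM in Tomato− (Tie1 at 0 in the latter), and in order 2 it was 241 against 23.4 CPM (Tek at 0 in the latter). The 9 pericyte and smooth muscle markers summed to 279.9 and 1290 CPM in order 1, then 110.4 and 156.8 CPM in order 2, with none at 0. The 11 myeloid markers summed to 48.1 and 88.7 CPM in order 1, where Ptprc was at 0 in both groups, and to 81.4 and 15321 CPM in order 2. Without the 35 cells holding Ptprc or Pecam1, Hhip passed the size rule as lower, and no other member did. Without the myeloid-like cluster the same held for Hhip.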

How the data were processed

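The members and gene lists were chosen with earlier results of these data known. The deposited values are expected counts per gene and cell, per the file headers and values: 4.91% of values above 0 were not whole. HTSeq 0.6.0, HISAT, StringTie 1.3.3b and the build GRCm38 are named in the submitters' processing notes, without their roles or a strand setting. Reads carry no molecular identifiers per the labels' protocols, so a few amplified molecules can give many counts.

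Expected counts were rounded. Of 388 cells, 386 had 1000 genes or more and 10000 counts or more and were kept, with 142533338 counts in Tomato+ and 125804595 in Tomato− cells. Table columns were matched to group and title set by name, none to a single cell title; 0 columns were left unused. Order 1 columns carry 12 library codes, 7 with both groups (143 cells). Counts were summed by group and order, and log2((CPM + 1)/(CPM + 1)) was taken within each order and averaged over both. No p-value was computed. Sums have exact Poisson and shares exact Clopper-Pearson 95% intervals; a count of 0 allows 3 counts. Named genes are all members, list genes past the size rule and the 2 highest by CPM per list. Lengths and coordinates come from GENCODE M21 on GRCm38. Clustering used scanpy 1.11.5 (2000 variable genes, 20 components, 15 neighbours, Leiden resolution 0.8); a cluster was named from markers only, and no doublet caller was run. Scaling alternatives used edgeR 4.0.16 and DESeq2 1.42.0. The ratio and size rule were run on simulated counts with known changes larger than 1.5-fold. Those counts had Poisson spread only, with no added spread between cells or sets. The run therefore cannot show how the rule behaves in sparse, uneven genes such as the members.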

Additional observations from a re-analysis of the deposited data

How the results depend on the processing

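The number of members past the size rule, 0 of 6, moved under 13 of 23 alternatives. It was 1 with a pseudocount of 0.1 CPM, with TMM scaling, with the mean of per-cell CPM and with cells thinned to 150000 counts, and the gene was Ptch1 each time. It was 1, Hhip, without the cells holding Ptprc or Pecam1, without the myeloid-like cluster, without set N1 of order 2 and without each gene's top cell. It was 2 with DESeq2 size factors (Ptch1 and Sufu), without P1 of order 2 (Hhip and Sufu), without P2 of order 2 (Gli2 and Ptch1) and without N2 of order 2 (Ptch1 and Sufu). It was 5 when both orders were summed (all but Smo), where 35.4% of all genes were past the rule. Over 21 alternatives each, the mean ratio kept its sign for Gli1 (0.46 to 1.69), Gli3 (0.28 to 1.04), Ptch1 (0.60 to 1.37), Sufu (0.62 to 2.48) and Hhip (−3.13 to −0.43). Gli2 turned to −0.74 without P1 of order 1, and Smo ran from −0.25 to 0.36 and kept its sign in 12. The mean hides changes of sign within order 2. There Hhip stood at 0.14 with the mean of per-cell CPM and at 0.08 with thinned cells. It stood at 0.61 without P2 of order 2 and at 1.05 without N2 of order 2. Gli3 stood at −0.18 without P1 of order 2 and at −0.07 without N1 of order 2. Without the cells holding Ptprc or Pecam1, Gli3 stood at −0.0084. The cause was not tested. Leaving the counts unrounded was added after seeing the data and changed no count of members. No paired analysis was possible because no test was made and the columns carry no animal; ratios within shared library codes and same-numbered sets stand beside each member. Gli1 was found in 10 cells, and its level rests on them.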
